A study of Homo sapiens with 12 samples.

Results

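The G1 cyclins and CDK inhibitors described here are 10 genes of the 32077 in the count table, listed by name with earlier results of these data known: the D cyclins CCND1 and CCND3, the E cyclins CCNE1 and CCNE2, the phosphatase CDC25A, and the inhibitors CDKN1A, CDKN1B, CDKN1C, CDKN2B and CDKN2C. All 10 had a row, 9 held enough counts to be tested, and CDKN1C did not. RNA-seq was carried out on PC3 and DU145, human prostate cancer lines whose growth does not need androgen, with 3 samples in each of the 4 groups. Both lines carry the genotype label wild type, no engineered allele is named, and cells were seeded in 6-well plates at 1000000 cells per well. This label does not give the state of the tumour suppressors p53 and retinoblastoma protein. The set was listed for lines without normal p53, so wild type is not read here as intact p53. PC3 vehicle and DU145 vehicle cells received the vehicle, which the study's methods give as sterile distilled water, for 48 hours. PC3 pentamidine and DU145 pentamidine cells received 2.5 μmol/L pentamidine, an antiprotozoal diamidine drug, for the same 48 hours. RNA with a poly(A) tail was sequenced, and the labels do not say whether the 3 samples of a group were separate cultures. The study's figure captions speak of independent experiments, without tying this to the sequenced samples, so the p-values measure the spread between these samples, which may be technical.

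In G1, D cyclins bind CDK4 and CDK6 and E cyclins bind CDK2, and together these kinases phosphorylate the retinoblastoma protein, which releases the E2F transcription factors that switch on genes of DNA replication. The CIP/KIP inhibitors p21 (CDKN1A), p27 (CDKN1B) and p57 (CDKN1C) act mainly on cyclin-CDK2 complexes, the INK4 inhibitors p15 (CDKN2B) and p18 (CDKN2C) bind CDK4 and CDK6, and CDC25A removes inhibitory phosphates from CDK2.

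Several values of the whole series bear on these genes. Total counts lay between 13514195 and 15131436 per sample. Levels are given below as counts scaled to a library of 1000000 (CPM), with libraries adjusted by the trimmed mean of M-values (TMM). The mRNA of the 13 mitochondria-encoded genes fell from 3.35% to 4.04% of the counts in vehicle samples to 0.205% to 0.257% with pentamidine. TMM was used because such a fall can shift the unadjusted share of the other genes together. With library size alone, the median log2 fold change of all tested genes was -0.014 in PC3 and 0.058 in DU145. With TMM it was 0.0046 and 0.0085. The line labels were checked against markers. The epithelial keratins KRT8 and KRT18 were present in all 12 samples, with KRT8 at 238 to 307 counts in PC3 and 25835 to 38812 in DU145. However, EPCAM and KRT19 reached at most 2 and 3 counts, and CDH1 at most 10 counts, in any sample of either line. These low counts go against the label DU145, a line known to express all 3 of these epithelial genes. The names PC3 and DU145 are used as the labels give them, and the identity of the lines was not tested. Neither the blood marker PTPRC nor the endothelial marker PECAM1 was above 10 counts in any sample, while the fibroblast collagens COL1A1 and COL3A1 reached 40 and 20.

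The stretches below, upstream of 4 gene starts, hold letters that E2F and Sp1 proteins are known to bind, and each belongs to a gene that passed the test in both lines. They come from RefSeq (GRCh38.p14), run 5′ to 3′ on the gene's strand, and capitals mark the match. In CDC25A the capitals mark an E2F word alone, and elsewhere GC boxes (GGGCGG, or CCGCCC on the opposite strand), of which the pair in CDKN1A shares 1 base. The CDKN1A stretch lies in an exon of a longer CDKN1A transcript.
CDC25A, chr3:48188428-48188487, minus strand, 70 to 11 bases before the start: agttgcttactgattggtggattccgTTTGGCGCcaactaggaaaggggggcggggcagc
CCNE1, chr19:29811831-29811890, plus strand, 160 to 101 bases before the start: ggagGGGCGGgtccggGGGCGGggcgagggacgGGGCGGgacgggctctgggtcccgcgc
CDKN1A, chr6:36678654-36678683, plus strand, 60 to 31 bases before the start: ccttgaggcgggcccGGGCGGGGCGGttgt
CDKN2B, chr9:22009376-22009445, minus strand, 140 to 71 bases before the start: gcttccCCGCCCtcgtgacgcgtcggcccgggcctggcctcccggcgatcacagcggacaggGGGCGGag
The E2F words searched were TTTCCCGC, TTTCGCGC, TTTGCCGC and TTTGGCGC on both strands, in windows from 250 bases before to 50 after each start. Of the 7 genes of the set with a window, CDC25A alone held one, against 4.0% of 27305 genes. In the replication list described below, 8 of the 12 genes with a window held one. GC boxes were in a window of all 7 and of 48.3% of all genes. The palindrome TGACGTCA and the word TGATGCAA were in none of the 7, and in 2.2% and 1.1% of all genes. CCND1, CCNE2 and CDKN1C had no entry in the table of windows.

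Pentamidine was followed by lower RNA of 4 of the 5 genes that drive G1 in PC3 and by higher RNA of 2 inhibitors. By edgeR's quasi-likelihood test, adjusted over all genes, 7 of the 9 tested genes passed 0.05 in PC3, where 43.4% of all tested genes did. The 2 that rose were CDKN2B and CDKN1A (21.7% of all genes rose), and the 5 that fell were CCND3, CCNE1, CCNE2, CDC25A and CDKN2C (21.7% fell). In DU145 7 of 9 also passed, against 34.0% of all genes, with 4 that rose (CDKN1A, CDKN1B, CDKN2B and CDKN2C, against 17.2%) and 3 that fell (CCND3, CCNE1 and CDC25A, against 16.8%). Values with and without the drug were fully separated for 8 of the 9 genes in PC3 and 7 of 9 in DU145, and for 52.1% and 44.0% of all tested genes. Changes were modest in size. With an absolute log2 fold change above 1 also required, CDKN2B in PC3 was the 1 call in that line (4.75% of all genes) and none was called in DU145 (2.03%). The median log2 fold change of the 9 genes was -0.69 in PC3 and 0.031 in DU145, against 0.0046 and 0.0085 over all tested genes.

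**Figure D1:**
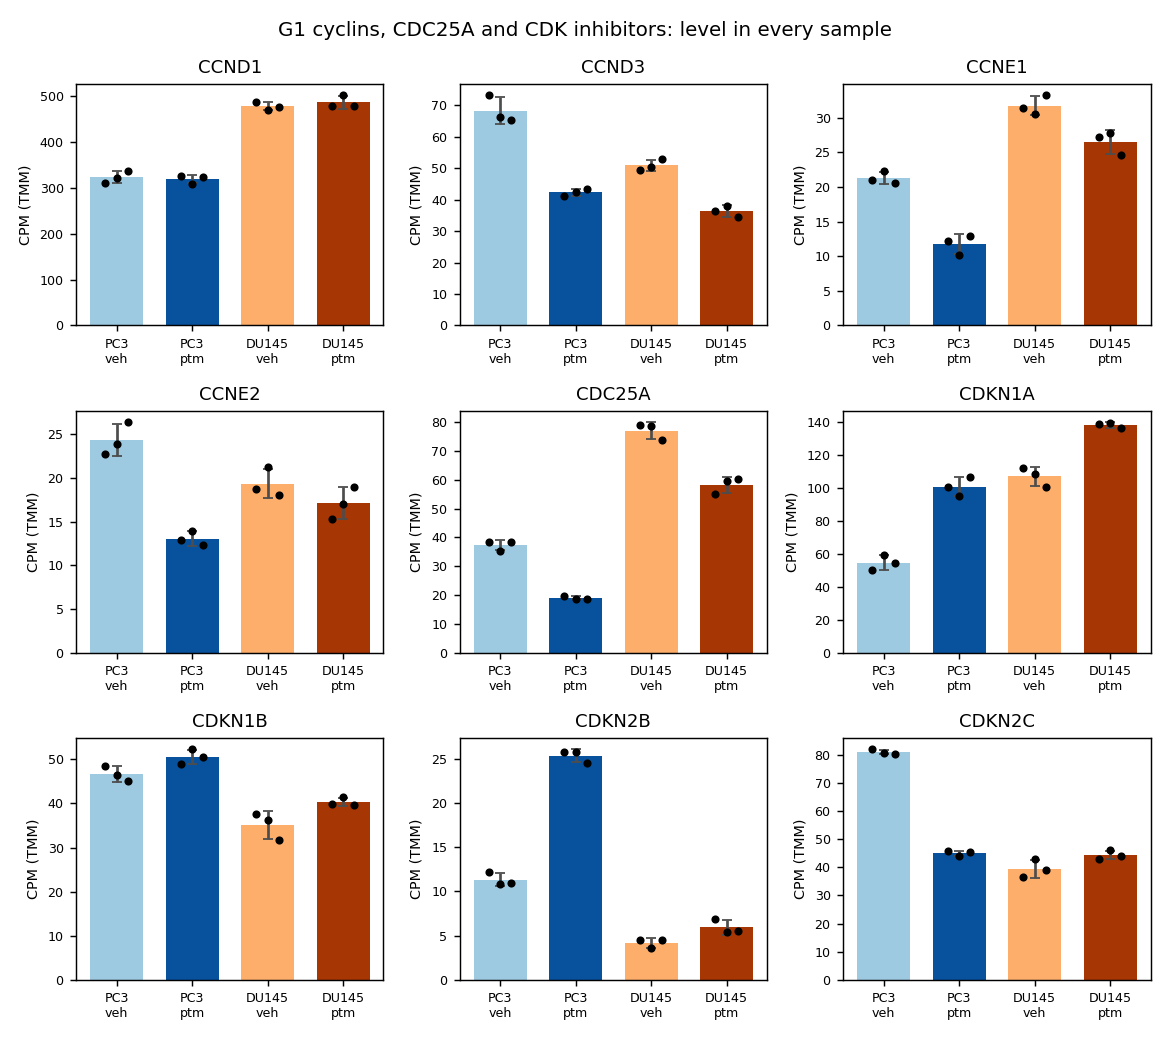
Level of each tested gene in CPM (TMM-scaled, linear axis from 0, a different range in each panel) in vehicle (veh) and pentamidine (ptm) samples of PC3 and DU145; points are samples, bars the mean and error bars the SD of 3 samples. CDKN2B and CDKN1A were higher with pentamidine and CDC25A and CCND3 lower in both lines, while CDKN2C went down in PC3 and slightly up in DU145.

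CCND1 was the D cyclin with the most RNA and did not pass the test in either line. CCND1 (ENSG00000110092, chr11:69641087-69654474, plus strand) was at 310.4, 321.9 and 336.2 CPM in PC3 vehicle and 324.7, 308.6 and 323.0 CPM in PC3 pentamidine samples. In DU145 it was at 487.2, 469.6 and 475.9 CPM with vehicle and 477.6, 501.9 and 479.2 CPM with pentamidine. The groups overlapped in both lines, and the log2 fold change was -0.014 in PC3 (95% CI -0.12 to 0.091, adjusted p = 0.847 by edgeR's quasi-likelihood test) and 0.031 in DU145 (95% CI -0.032 to 0.094, adjusted p = 0.482). When library size alone was used for scaling, CCND1 passed in DU145 at 0.081 (adjusted p = 0.0391 by edgeR), a setting in which the median of all genes there was 0.058. Of the CCND1 exon bases, 497 (10.29%) lie opposite exons of LTO1 (listed as ORAOV1), which held 353 to 487 counts against 4343 to 7399 for CCND1.

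CCND3, the other D cyclin of the set, fell in both lines. CCND3 (ENSG00000112576, chr6:41934933-42050357, minus strand) was at 73.3, 66.2 and 65.5 CPM in PC3 vehicle samples against 41.3, 42.4 and 43.3 CPM with pentamidine. In DU145 its values were 49.5, 50.3 and 52.9 CPM with vehicle and 36.6, 38.1 and 34.6 CPM with pentamidine. All pentamidine samples lay below all vehicle samples of their line. The log2 fold change was -0.69 (SE 0.065, adjusted p = 2.24e-07 by edgeR's quasi-likelihood test) in PC3 and -0.48 (SE 0.061, adjusted p = 6.83e-09) in DU145. The difference between these responses, PC3 minus DU145, was -0.21 (95% CI -0.39 to -0.025) and did not pass the interaction test (adjusted p = 0.104 by edgeR). It did pass with library size alone (-0.27, adjusted p = 0.0253 by edgeR) and with limma on log2(CPM + 1) (-0.27, adjusted p = 0.043).

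Both E cyclins fell in PC3, and CCNE1 alone of the pair passed in DU145. CCNE1 (ENSG00000105173, chr19:29811898-29824308, plus strand), whose GC-rich upstream stretch is printed above, held 310, 345 and 279 counts in PC3 vehicle and 180, 143 and 192 in PC3 pentamidine samples. In DU145 it held 421, 437 and 484 counts against 381, 410 and 354. The groups were apart in both lines, and the log2 fold change was -0.85 (SE 0.11, adjusted p = 5.69e-06 by edgeR's quasi-likelihood test) in PC3 and -0.25 (SE 0.074, adjusted p = 0.00524) in DU145. The DU145 value missed the threshold with limma (adjusted p = 0.0682), and the difference between the lines was -0.60 (SE 0.13, adjusted p = 0.000884 by edgeR).

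CCNE2 (ENSG00000175305, chr8:94879770-94896678, minus strand) held 335, 370 and 358 counts in PC3 vehicle samples and 192, 196 and 182 with pentamidine. In DU145 it held 252, 303 and 262 counts with vehicle and 215, 251 and 273 with pentamidine, and these groups overlapped. The log2 fold change was -0.89 (SE 0.099, adjusted p = 1.42e-06 by edgeR's quasi-likelihood test) in PC3 and -0.17 (95% CI -0.36 to 0.020, adjusted p = 0.165) in DU145, and the responses differed by -0.72 (adjusted p = 0.000349 by edgeR). These counts carry a limit. Of the CCNE2 exon bases, 1629 (37.05%) lie opposite exons of INTS8, a subunit of the Integrator complex, and the sources used here do not say that counting used strand, so reads of the pair cannot be told apart there. INTS8 held 797 to 1335 counts and also fell, by 0.57 in PC3 (adjusted p = 9.33e-07 by edgeR's quasi-likelihood test) and by 0.34 in DU145 (adjusted p = 8.76e-08). Its part in the CCNE2 counts was not tested.

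CDC25A fell in both lines, by the largest log2 change among the genes of the set that fell in PC3. CDC25A (ENSG00000164045, chr3:48157146-48188402, minus strand) was at 38.5, 35.4 and 38.2 CPM in PC3 vehicle and 19.6, 18.7 and 18.7 CPM in PC3 pentamidine samples. In DU145 it was at 78.9, 78.5 and 73.8 CPM with vehicle and 55.0, 59.4 and 60.3 CPM with pentamidine. All pentamidine samples lay below the vehicle samples of their line, and DU145 with the drug still held more CDC25A than PC3 without it. The log2 fold change was -0.97 (SE 0.078, adjusted p = 2.57e-08 by edgeR's quasi-likelihood test) in PC3, a fall to 0.511 of vehicle, and -0.40 (SE 0.051, adjusted p = 9.1e-09) in DU145. The lines differed by -0.57 in this response (SE 0.091, adjusted p = 3.1e-05 by edgeR). All of these results still passed with any 1 library left out.

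CDKN1A rose in both lines. CDKN1A (ENSG00000124762, chr6:36676460-36687339, plus strand) held 740, 914 and 744 counts in PC3 vehicle and 1492, 1339 and 1580 in PC3 pentamidine samples. In DU145 it held 1507, 1555 and 1468 counts with vehicle and 1950, 2056 and 1966 with pentamidine. No sample overlapped within a line, and on the CPM scale the pentamidine PC3 samples, at 95.2 to 106.6 CPM, came up to the vehicle DU145 samples, at 100.9 to 112.3 CPM. Its log2 fold change was 0.89 (SE 0.069, adjusted p = 1.93e-08 by edgeR's quasi-likelihood test) in PC3, which is 1.85-fold, and 0.37 (SE 0.042, adjusted p = 1.8e-10) in DU145, which is 1.29-fold. The response was larger in PC3 by 0.51 (SE 0.081, adjusted p = 2.41e-05 by edgeR). Exons of DINOL, an RNA of the opposite strand, cover 146 (4.79%) of the CDKN1A exon bases.

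CDKN1B changed little. CDKN1B (ENSG00000111276, chr12:12715058-12722371, plus strand) was at 48.6, 46.5 and 45.0 CPM in PC3 vehicle and 49.0, 52.2 and 50.5 CPM in PC3 pentamidine samples. In DU145 it was at 37.6, 36.3 and 31.6 CPM against 39.9, 41.4 and 39.7 CPM. In both lines every pentamidine sample was above every vehicle sample, but the fitted rise was 1.09-fold in PC3 and 1.15-fold in DU145. The log2 fold change of 0.12 in PC3 did not pass (95% CI -0.017 to 0.26, adjusted p = 0.148 by edgeR's quasi-likelihood test), and that of 0.20 in DU145 did (95% CI 0.071 to 0.34, adjusted p = 0.0134). The DU145 change no longer passed without vehicle replicate 3 (0.13, adjusted p = 0.173 by edgeR), without pentamidine replicate 2 (0.18, adjusted p = 0.0773), with DESeq2 (adjusted p = 0.0596) or with limma (adjusted p = 0.0516). CDKN1C (ENSG00000129757, chr11:2883213-2885881, minus strand) was at or near 0: it held 1, 0 and 0 counts in PC3 vehicle, 1, 1 and 2 in PC3 pentamidine, 2, 6 and 5 in DU145 vehicle and 4, 1 and 5 in DU145 pentamidine samples. No PC3 sample was above the floor of 3 counts that a count of 0 allows per library, so no fold change is given for it.

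CDKN2B had the largest rise of the set. CDKN2B (ENSG00000147883, chr9:22002903-22009363, minus strand) held 180, 167 and 149 counts in PC3 vehicle samples and 382, 363 and 364 with pentamidine. In DU145, where it was the least abundant tested gene of the set, it held 60, 51 and 65 counts with vehicle and 96, 80 and 79 with pentamidine. The groups were apart in both lines. The log2 fold change in PC3 was 1.17 (SE 0.094, adjusted p = 2.89e-08 by edgeR's quasi-likelihood test), a 2.25-fold rise. In DU145 it was 0.51 (95% CI 0.16 to 0.86, adjusted p = 0.018 by edgeR). This rise no longer passed without vehicle replicate 2 (0.41, adjusted p = 0.104 by edgeR), without pentamidine replicate 1 (0.39, adjusted p = 0.13) or with DESeq2 (adjusted p = 0.0641). The responses differed by 0.66 (SE 0.18, adjusted p = 0.00973 by edgeR), and this difference passed in all 20 alternatives.

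CDKN2C, the other INK4 gene of the set, went in opposite directions in the lines. CDKN2C (ENSG00000123080, chr1:50960745-50974633, plus strand) was at 82.0, 80.8 and 80.3 CPM in PC3 vehicle and 45.7, 44.0 and 45.4 CPM in PC3 pentamidine samples. In DU145 it was at 36.7, 42.8 and 39.0 CPM with vehicle and 43.0, 46.1 and 44.2 CPM with pentamidine. The PC3 groups lay far apart, whereas the highest DU145 vehicle sample, at 42.8 CPM, lay just under the lowest pentamidine sample, at 43.0 CPM. The log2 fold change was -0.84 (SE 0.059, adjusted p = 4.43e-09 by edgeR's quasi-likelihood test) in PC3 and 0.17 (95% CI 0.045 to 0.30, adjusted p = 0.0292) in DU145. The rise in DU145 was fragile: it passed in 7 of 15 alternatives and did not pass without vehicle replicate 1 (0.12, adjusted p = 0.201 by edgeR), vehicle replicate 3 (0.16, adjusted p = 0.0916), pentamidine replicate 2 (0.14, adjusted p = 0.154) or pentamidine replicate 3 (0.17, adjusted p = 0.0621). The difference between the lines, at -1.02 (SE 0.086, adjusted p = 9.05e-10 by edgeR), was the largest of the set and passed in all 20 alternatives. With pentamidine the PC3 samples, at 44.0 to 45.7 CPM, lay within the range of the DU145 samples, at 43.0 to 46.1 CPM.

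**Figure D2:**
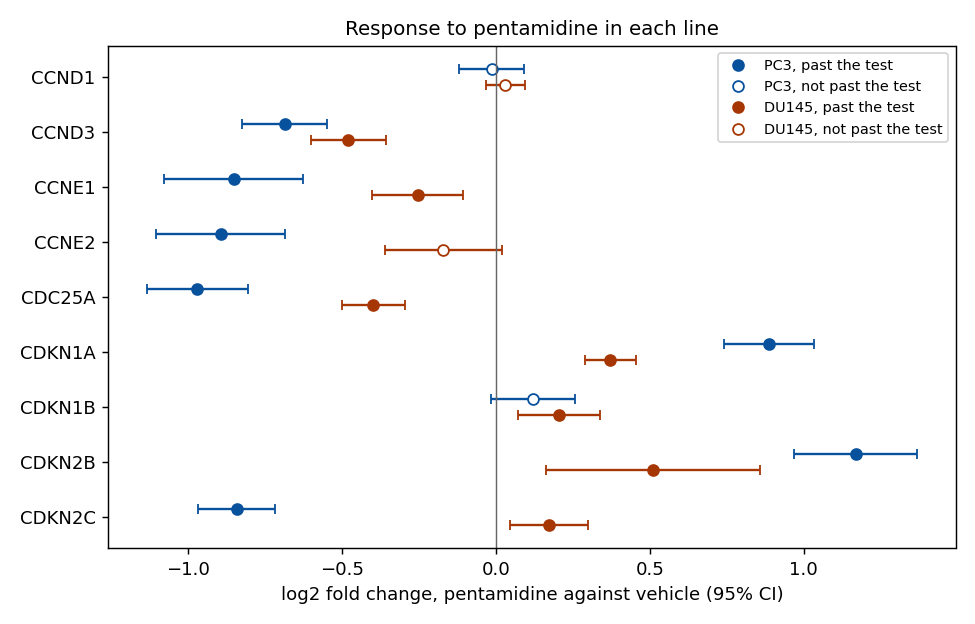
Log2 fold change of pentamidine against vehicle for the 9 tested genes in PC3 (blue) and DU145 (red-brown), with 95% confidence intervals; filled points passed adjusted p 0.05 and open points did not. Outside CCND1 and CDKN1B, the PC3 point lies further from 0 than the DU145 point for every gene, and for CDKN2C the points lie on opposite sides of 0.

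Across the lines, 6 of the 9 genes passed the interaction test (20.4% of all tested genes did). These were CCNE1, CCNE2, CDC25A, CDKN1A, CDKN2B and CDKN2C, while CCND1, CCND3 and CDKN1B did not pass. CCND3, CCNE1, CDC25A, CDKN1A and CDKN2B passed in both lines in the same direction, 5 of 9 against 19.6% of the 13125 genes tested in both lines. CDKN2C was the 1 gene that passed in opposite directions, against 2.42% of those genes.

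The untreated lines also differed in all of these genes. All 9 passed 0.05 between PC3 vehicle and DU145 vehicle by edgeR's quasi-likelihood test (65.3% of all tested genes did), and 3 also differed by over 1 on the log2 scale (19.2%). CDKN2B was higher in PC3 by 1.42 (adjusted p = 2.63e-07 by edgeR) and CDKN2C by 1.01 (adjusted p = 7.53e-10), while CDC25A was lower in PC3 by a log2 difference of -1.07 (adjusted p = 2.26e-10). CDKN1A, at -0.996, lay at the edge of that limit (adjusted p = 1.65e-09 by edgeR). Of the rest, CCND3 (0.40), CDKN1B (0.39) and CCNE2 (0.31) were higher and CCND1 (-0.59) and CCNE1 (-0.60) lower in PC3. The CCNE2 difference was lost without DU145 vehicle replicate 3 (0.26, adjusted p = 0.0529 by edgeR).

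To compare levels between genes, counts were divided by exon length and scaled to a sum of 1000000 (TPM), which is used here only within a group. CCND1 had the highest TPM of the set in every group. It was at 250.5 ± 4.36 (SD, n = 3) in PC3 vehicle and 388.6 ± 12.7 in DU145 pentamidine samples, values not to be compared with each other. In PC3 vehicle it was followed by CDKN2C at 91.6 ± 3.07, then by CDKN1A at 67.2 ± 5.41 and CDKN1B at 62.3 ± 3.80, which overlapped. With pentamidine, CDKN1A (126.3 ± 8.81 TPM) stood second in PC3, ahead of CDKN1B (68.7 ± 1.55 TPM) and CDKN2C (51.9 ± 1.74 TPM). CDC25A and CCNE1 overlapped in PC3 with vehicle and with pentamidine. In DU145 CDKN1A was second in both groups, and CDKN1B, CCNE1 and CDKN2C overlapped with vehicle. CCNE2, CDKN2B and CDKN1C were the lowest in DU145, at 15.3, 3.57 and 0.426 TPM with vehicle. The place of CCND3 depends on the length used: it was at 44.2 TPM in PC3 vehicle over the union of its exons and at 79.4 TPM over its longest transcript.

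Shares within a family do not depend on the scaling of a sample, but they do depend on the gene lengths, here the union of exons. Among D cyclins CCND1 made up 85.0% ± 1.3 (SD, n = 3) of the TPM in PC3 vehicle and 89.7% ± 0.361 in PC3 pentamidine samples, with CCND3 going from 14.99% to 9.92%. CDKN1A made up 51.9% ± 2.77 of CIP/KIP TPM in PC3 vehicle and 64.7% ± 1.78 with pentamidine, and 73.6% ± 0.677 and 75.9% ± 0.259 in DU145. Sample ranges of these shares did not overlap between vehicle and pentamidine in either line. The split of the E cyclins hardly moved, with CCNE1 at 60.2% and 60.7% in PC3 and 73.9% and 72.8% in DU145. This split carries the limit of the CCNE2 counts, in which reads of INTS8 cannot be told apart over shared exon bases. The INK4 sum was of CDKN2A, CDKN2B, CDKN2C and CDKN2D, and its CDKN2A counts take in p14ARF as well as p16. In that sum CDKN2A was at 40.65% in PC3 vehicle, 47.74% in PC3 pentamidine, 64.81% in DU145 vehicle and 64.57% in DU145 pentamidine samples. Among INK4 genes in PC3, CDKN2C went from 41.9% ± 0.649 to 26.6% ± 0.378 and CDKN2B from 4.79% ± 0.314 to 12.3% ± 0.434, while in DU145 CDKN2C was at 26.8% and 26.1%. Over the longest transcripts, a choice added after the data were seen, the CDKN2C and CDKN2B shares were lower. CDKN2C went from 23.5% to 13.9% and CDKN2B from 2.44% to 5.83% in PC3, and CDKN2C was at 11.9% and 11.6% in DU145. The CDKN2A share was higher, at 67.4% in PC3 vehicle and 84.7% in DU145 vehicle samples. The D cyclin share of CCND1 was then 72.4% and 80.4% in PC3, and the CIP/KIP share of CDKN1A 57.8% and 69.9%. With 3 samples against 3, an exact permutation test of such a share cannot go below p = 0.10, so none is given.

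**Figure D3:**
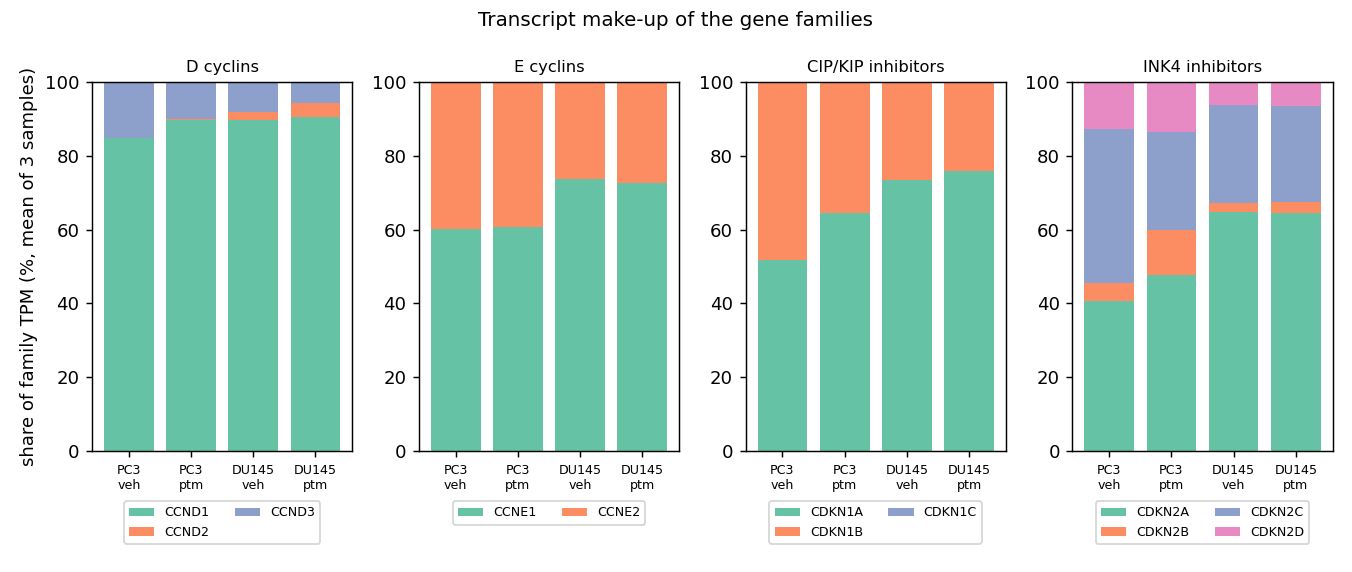
Share of each gene in the summed TPM of its family (percent, mean of 3 samples, over union exon lengths) in vehicle (veh) and pentamidine (ptm) samples; CDKN1C, at most 0.260%, is too small to see. In PC3 the CDKN1A and CDKN2B shares grew with pentamidine and the CDKN2C share shrank, while the CCNE1 share stayed at 60.2% and 60.7%. The E cyclin shares carry the limit of the exon bases that CCNE2 shares with INTS8.

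The other genes of the G1 machinery were read from 6 lists, against medians over all genes of 0.0046 in PC3 and 0.0085 in DU145. Of 9 tested G1 cyclins, kinases and CDK-activating kinase parts outside the set, 2 rose and 5 fell in PC3 (median -0.20), and 1 rose and 3 fell in DU145 (median -0.12). Over all tested genes 21.7% rose and 21.7% fell in PC3, and 17.2% rose and 16.8% fell in DU145. CCND2, the third D cyclin, held 245 to 265 counts in DU145 vehicle and 421 to 471 in DU145 pentamidine samples, a log2 fold change of 0.77 (adjusted p = 2.27e-11 by edgeR's quasi-likelihood test). In PC3 it held 4, 3 and 0 counts with vehicle and 34, 33 and 26 with pentamidine. It entered the PC3 test only through its treated samples, so no fold change is given there and it is 1 of the 2 counted above as risen. CCND2 made up 0.405% of D cyclin TPM in treated PC3 and 3.83% in treated DU145 samples. CDK2, the E cyclins' partner, fell by 0.73 and 0.20, and CCNA2, the S phase cyclin that also binds CDK2, fell by 0.76 and 0.14 in PC3 and DU145.

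Of the 3 other CDK inhibitors, CDKN3 (a phosphatase that acts on CDK2) fell by 0.31 in PC3 and CDKN2A (p16 and p14ARF) rose by 0.21 in DU145. CDKN2D (p19) was at -0.11 and 0.31 and passed in neither line. All 4 CDK phosphatases and kinases passed the interaction test with the lower response in PC3 (20.4% of all tested genes passed it). CDC25B changed by -0.22 in PC3 and 0.12 in DU145 and passed in both. CDC25C was at -0.18 in PC3, where it did not pass, and rose by 0.28 in DU145. PKMYT1 and WEE1, kinases that inhibit CDKs, fell by 0.76 and 0.43 in PC3 and were at -0.047 and -0.082 in DU145, where they did not pass. In DU145 CDC25A therefore fell while its relatives CDC25B and CDC25C rose.

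Of 10 ubiquitin ligase parts that act on D and E cyclins, CDC25A or p27, 3 fell and none rose in PC3 (median -0.018), and 3 fell and 1 rose in DU145 (median -0.030), where 21.7% and 16.8% of all genes fell in PC3 and DU145. SKP2, the subunit that recognises p27, fell by 0.90 in PC3 (adjusted p = 8.5e-09 by edgeR's quasi-likelihood test) and by 0.20 in DU145 (adjusted p = 0.00122). RBX1, the RING subunit, fell by 0.32 and 0.16. Of the transcription factors known to act on CDKN1A, CDKN1B, CDKN2B or CCND1, 3 of 12 rose and 2 fell in each line (medians -0.00045 and -0.00062), near the shares of all genes, of which 21.7% rose and 21.7% fell in PC3 and 17.2% rose and 16.8% fell in DU145. KLF4, which can activate CDKN1A, rose by 2.86 in PC3 and 1.56 in DU145, from 92 to 102 counts to 659 to 750 in PC3. FOXO3, a factor that can activate CDKN1B, rose by 0.89 and 0.18, and SMAD3, a TGF-β signal carrier that acts on CDKN2B, fell by 0.63 and 0.17.

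The list of G1 to S replication genes, which also holds the proliferation marker MKI67, moved together in PC3. All 15 genes fell there (median -0.68), whereas 6 fell and 2 rose in DU145 (median -0.10). All 15 passed the interaction test with the lower response in PC3. MKI67, with log2 fold changes of -0.78 in PC3 and -0.26 in DU145, is among those counted as fallen in each line. Over all tested genes 21.7% fell in PC3, 16.8% fell and 17.2% rose in DU145, and 20.4% passed the interaction test. MCM4 and MCM2, parts of the replicative helicase, fell by 1.11 and 0.92 in PC3 and by 0.23 and 0.13 in DU145. A lower share of cycling cells and less RNA per cell cannot be told apart in bulk samples.

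**Figure D4:**
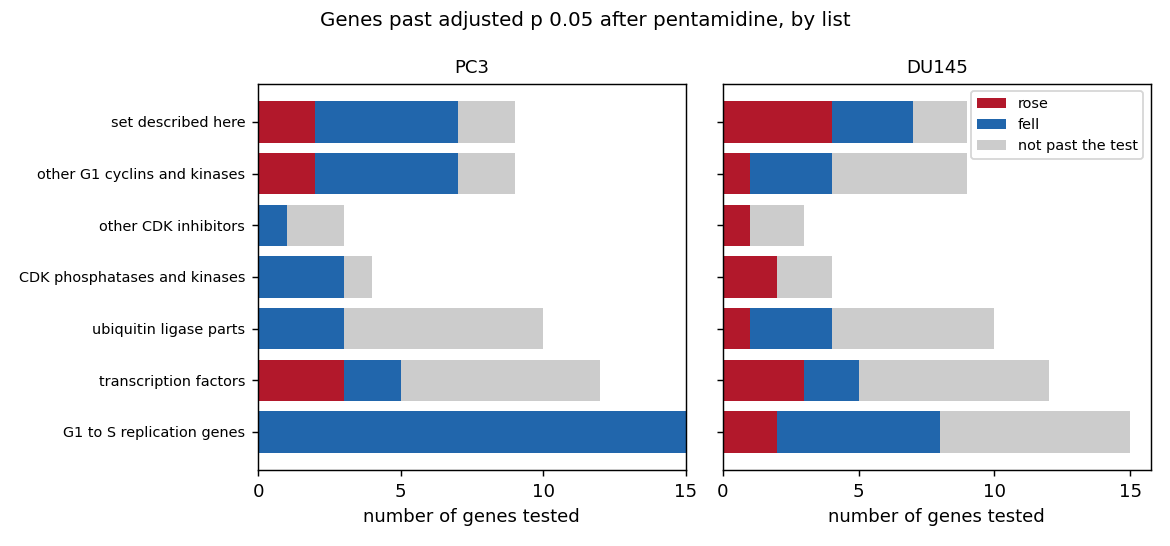
Number of tested genes of each list that rose, fell or did not pass adjusted p 0.05 after pentamidine in PC3 (left) and DU145 (right). All 15 genes of the replication list, MKI67 among them, fell in PC3 and 6 of 15 in DU145, against 21.7% and 16.8% of all tested genes.

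The genes whose log2 CPM over the 12 samples was most like that of the 2 genes of the set with the largest mean change were named by Pearson's correlation among 13125 genes, as a description over 4 groups of 3 samples. For CDKN2B these were ALKBH3 (r = 0.996), LMO4 (0.993), AC126755.1 (0.991), SLC38A2 (0.991) and PMAIP1 (0.990). For CDC25A they were HAS3 (0.997), PFKFB3 (0.997), CDC20 (0.996), STIP1 (0.995) and GOLM1 (0.994). These 12 points share 2 lines and 2 treatments.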

How the data were processed

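RNA-seq of 12 samples was used. According to the submitters' processing notes and the study's methods, the authors aligned reads with HISAT2 2.1.0, used the GRCh38 build and compared groups with DESeq 1.18.1. The deposited counts are whole numbers of reads per gene, not normalized by the authors. The counting program and its strand setting are not given in the sources used here. Of 33595 rows, repeated entries of a name with the same counts were merged, which left 32077 genes. A further table named for FPKM and the authors' comparison tables, which hold fold changes and p-values, were not used.

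Counts were fitted with edgeR 4.0.16 (R 4.3.3): filterByExpr with a minimum count of 10, TMM scaling and the quasi-likelihood test, for each line alone, for both vehicle groups, and with the interaction of line and treatment over 12 samples. P-values were adjusted by Benjamini-Hochberg over all genes tested. Passing means an adjusted p below 0.05, and called means an absolute log2 fold change above 1 as well. The fits were tested on simulated data. DESeq2 1.42.0, limma 3.58.1 with a pseudocount of 1, other scalings and filters, and leaving out each library were alternatives. TPM used union exon lengths of GENCODE 29. Replicates differed by more than counting noise in every pair, and most so in PC3 vehicle. The mean chi-square per gene against counting noise was 3.6 to 7.3 for pairs of PC3 vehicle samples. It was 1.7 to 3.1 for pairs in the other groups. Totals of 13514195 to 15131436 counts limit precision for genes with few counts, and floors cover counting error only.

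The genes and lists were chosen with earlier results of these data known. All genes of the set are named. From each list reported here the 2 genes per direction with the largest mean change among those past 0.05 in both lines in the same direction are named, with every gene of lists of 4 or fewer. For the 2 genes of the set with the largest mean change, the 5 most correlated genes are named. LTO1 and INTS8 were added for shared exon bases, and MKI67 is named as the proliferation marker in the replication list. The markers TMPRSS2 and CD3E were not analysed here, and some genes of the lists are not reported here.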

Additional observations from a re-analysis of the deposited data

Results flagged for a closer look

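For 6 genes the response to pentamidine differed between PC3 and DU145 by the interaction test. The log2 response in PC3 minus that in DU145 was -1.02 for CDKN2C, -0.72 for CCNE2, -0.60 for CCNE1 and -0.57 for CDC25A, and 0.66 for CDKN2B and 0.51 for CDKN1A. CDKN2C was the 1 gene of these whose fitted changes had opposite signs in the lines. For CCNE2 the overlapping gene INTS8 also differed, by -0.23 (adjusted p = 0.0317 by edgeR's quasi-likelihood test), and its part in the CCNE2 value was not tested. Dixon's test for outlying samples was not applied, since each group held 3 samples.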

How the results depend on the processing

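Of the 9 tested genes, 7 passed in PC3 under all alternatives, and 6 or 7 passed the interaction test. In DU145 the count of 7 was 4 with DESeq2 and with limma, 8 with library size alone, and 5 to 6 without 1 library. Calls over all genes in PC3, 658, were 431 with at least 10 counts in every sample, 331 with limma and 6010 by adjusted p alone. In DU145, 290 became 193 with DESeq2, 154, 109 and 4860 under those settings, and between vehicle groups 2768 became 1432 with at least 10 counts and 9405 by adjusted p alone. Without 1 library these counts ranged from 654 to 741, 293 to 319 and 2876 to 2990, and the 3112 interaction results from 2644 to 3268. The stricter filter tests fewer genes, and the threshold without a fold limit is wider by construction. The cause was not tested for the rest.

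CCND1 in PC3, at -0.014, changed sign without vehicle replicate 3 (0.017) or pentamidine replicate 2 (0.0062), ranged from -0.047 to 0.017 over the libraries left out, and never passed. Same-numbered samples did not deviate together (correlations of -0.073 to 0.039). The labels do not say whether they were handled as pairs, and these correlations cannot exclude it. With the replicate number as a block, 648 genes were called in PC3, 285 in DU145 and 2773 between vehicle groups, 2803 passed the interaction test, and 7, 7 and 6 genes of the set passed. Depth limits CDKN1C most.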
